A study of Mus musculus with 14 samples.

Results

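The regions described here are the accessible chromatin of 8 genes that define regulatory T cells (Tregs): Foxp3, Il2ra, Il2rb, Ikzf2, Ikzf4, Nrp1, Lrrc32 and Gpr83. They were taken from a table of 67254 regions in which counts were deposited for 14 bulk ATAC-seq libraries. A region belonged to a gene if its midpoint had that gene as its nearest protein-coding transcription start or lay within the gene body, in GENCODE vM21 on GRCm38. The rule found 146 regions: 53 of Nrp1, 40 of Ikzf2, 24 of Lrrc32, 13 of Il2ra, 6 of Gpr83, 4 each of Il2rb and Ikzf4, and 2 of Foxp3. Of these, 138 passed the filter on low counts and were tested, among 61366 tested regions in all.

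Splenic CD4+Foxp3-YFP+ cells were sorted as CD44–CD62L+ central Tregs (cTregs) or CD44+CD62L– effector Tregs (eTregs) and were either control (n = 3 libraries for each cell state) or Atg14-deficient (n = 4 for each). All donors of interest carried CD45.2 and the Foxp3Cre allele, which drives Cre and YFP from the Foxp3 locus, in cells that express Foxp3. Some mice of the knockout genotype in the study also carried an Atg14 allele deleted outside these cells, and whether these donors did is not given in the sources used here. Controls (Foxp3CreAtg14+/fl) had 1 floxed Atg14 allele and the knockout (Foxp3CreAtg14fl/fl, here Atg14KO) had 2; Atg14 is a subunit of the Vps34 complex that starts autophagy. Marrow of either genotype was mixed in equal parts with CD45.1+ wild-type marrow and grown in irradiated Rag1–/– hosts, which lack their own T and B cells, for 6 to 8 weeks, on the C57BL/6 background, before cells were taken. The age of these donors is not stated apart from the general age range of the study's mice.

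Foxp3 is the transcription factor that specifies the lineage, and an intronic element of the gene, CNS2 or the Treg-specific demethylated region, keeps it expressed through cell division. Il2ra (CD25) and Il2rb (CD122) encode chains of the IL-2 receptor, whose signal through STAT5 maintains Tregs. Ikzf2 (Helios) and Ikzf4 (Eos) are zinc finger factors of the Ikaros family, Nrp1 (neuropilin-1) is a surface receptor typical of thymus-derived Tregs, Lrrc32 (GARP) displays latent TGF-β on the Treg surface, and Gpr83 is a G protein-coupled receptor with high expression in Tregs.

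Total counts were between 2242983 and 5548189 per library, and the regions of the 8 genes held 0.112% to 0.168% of them. Correlations between libraries of a group were 0.868 to 0.922 and no 2 libraries were identical. The single region over the Atg14 start gave 19.8 to 35.2 CPM (counts scaled to the same library total) in the control libraries and 16.8 to 29.3 CPM in the Atg14KO libraries; the sources used here do not place the floxed exon, so this checks no label. Of the T cell and Treg markers, Cd3e, Cd4, Il2ra, Ctla4 and Foxp3 all had counts in every library. Of the markers of other cells, Ms4a1, Csf1r and Lyz2 had no region, but the other myeloid markers, Itgam and Spi1, gave 7.75 to 18.7 and 9.53 to 17.6 CPM. The myeloid sum was 20.5 to 34.1 CPM in cTregs and 22.2 to 33.4 CPM in eTregs, and the sum of the NK markers Ncr1 and Klrb1c was 2.34 to 8.99 and 4.72 to 8.39 CPM. The summed level over the 3 B cell markers used (Cd79a, Ms4a1, Pax5) was 19.2 to 33.1 CPM in cTregs and 33.1 to 51.4 CPM in eTregs. The higher level came from the regions near Pax5 (means of 19.6 and 20.6 CPM in control and Atg14KO cTregs, 43.6 and 37.2 CPM in control and Atg14KO eTregs), while the single Cd79a region went the other way (5.05 and 3.76 CPM against 2.54 and 2.69 CPM). Over the 2 CD8 markers it was 23.2 to 41.7 CPM in cTregs and 7.35 to 18.0 CPM in eTregs. The Pax5 regions and the CD8 markers moved with cell state, and their part in the results below was not tested. In sorted populations, fewer open cells and less accessibility per cell cannot be told apart.

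Sequences are shown for the regions on which the results turn, each as the 300 bases around the midpoint of the region, read from GRCm38 (RefSeq) 5′ to 3′ on the strand of the gene. The first pair are both regions assigned to Foxp3, with capitals marking CpG dinucleotides. Methylation of such sites is what CNS2 is known for, and only the intronic window lies in that stretch. The window labelled far upstream lies within the annotated gene only through a minor transcript. Its region covers the start of the divergent gene Ppp1r3f. The window in the Foxp3 intron was chrX:7583985-7584284, 4567 bp past the most upstream start, with 11 CpG; the other was chrX:7574370-7574669, at -5048 bp from it, with 19 CpG.
Foxp3 intron: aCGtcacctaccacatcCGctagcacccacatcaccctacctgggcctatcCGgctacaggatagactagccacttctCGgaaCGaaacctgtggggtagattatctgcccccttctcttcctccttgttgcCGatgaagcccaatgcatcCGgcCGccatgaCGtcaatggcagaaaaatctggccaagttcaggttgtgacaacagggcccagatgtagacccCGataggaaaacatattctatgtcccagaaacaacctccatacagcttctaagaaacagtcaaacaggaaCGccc
Foxp3, far upstream: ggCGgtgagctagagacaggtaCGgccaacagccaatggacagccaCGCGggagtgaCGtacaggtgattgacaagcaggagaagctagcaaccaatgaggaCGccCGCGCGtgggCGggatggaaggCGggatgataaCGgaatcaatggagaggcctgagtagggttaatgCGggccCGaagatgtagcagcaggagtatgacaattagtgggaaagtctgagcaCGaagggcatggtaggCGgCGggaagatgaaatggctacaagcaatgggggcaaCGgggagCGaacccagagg

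The next 4 windows are those with the smallest p between cell states in Il2ra, Ikzf2, Lrrc32 and Gpr83 (the last 2 were added after their values were seen). Capitals mark matches on either strand to STAT (TTCNNNGAA), RUNX (TGTGGT), AP-1 (TGANTCA), forkhead (GTAAACA) or ETS (CCGGAA) motifs; no match overlapped another.
Il2ra, 5498 bp upstream, chr2:11637160-11637459: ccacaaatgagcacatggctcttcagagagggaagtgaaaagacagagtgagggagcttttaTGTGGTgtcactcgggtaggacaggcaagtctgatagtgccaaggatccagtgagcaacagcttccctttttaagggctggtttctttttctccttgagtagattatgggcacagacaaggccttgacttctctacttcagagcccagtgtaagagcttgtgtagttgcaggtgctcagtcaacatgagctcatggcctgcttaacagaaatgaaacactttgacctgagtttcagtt
Ikzf2, 5147 bp upstream, chr1:69692243-69692542, minus strand: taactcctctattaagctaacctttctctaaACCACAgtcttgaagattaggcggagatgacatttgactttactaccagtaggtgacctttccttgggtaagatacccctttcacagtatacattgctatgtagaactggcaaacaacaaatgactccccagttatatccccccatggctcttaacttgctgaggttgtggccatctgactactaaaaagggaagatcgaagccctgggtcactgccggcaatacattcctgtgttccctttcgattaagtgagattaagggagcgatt
Lrrc32, 73482 bp past the start, chr7:98563030-98563329: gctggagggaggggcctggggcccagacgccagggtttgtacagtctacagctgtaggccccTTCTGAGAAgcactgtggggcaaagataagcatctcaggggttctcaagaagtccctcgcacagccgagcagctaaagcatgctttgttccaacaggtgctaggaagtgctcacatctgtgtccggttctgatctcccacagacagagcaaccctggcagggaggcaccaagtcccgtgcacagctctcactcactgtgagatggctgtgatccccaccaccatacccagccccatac
Gpr83 start, chr9:14860010-14860309: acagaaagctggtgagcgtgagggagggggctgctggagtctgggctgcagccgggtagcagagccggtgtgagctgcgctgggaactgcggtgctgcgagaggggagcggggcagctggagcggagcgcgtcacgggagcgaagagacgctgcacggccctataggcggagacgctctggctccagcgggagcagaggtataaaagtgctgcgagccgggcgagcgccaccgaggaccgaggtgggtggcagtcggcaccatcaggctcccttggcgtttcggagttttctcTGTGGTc

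The Foxp3 intron window held 2 matches to the STAT motif, at positions 75 and 272 of the 300, and 1 to RUNX at position 10. The first of the STAT matches contains a CpG. Il2ra, Ikzf2 and Gpr83 each showed 1 RUNX match, and Lrrc32 showed 1 STAT match. Over all members, 20 of 138 windows (14.5%) held the STAT motif against 9.17% of 61322 windows on assembled chromosomes, 48 (34.8%) held RUNX against 29.1%, 21 (15.2%) AP-1 against 14.6%, 9 (6.52%) ETS against 10.9%, and 5 (3.62%) forkhead against 4.49%. The median CpG number was 3 in the members and 5 in all windows. These are counts of letters, not of bound sites. In the central 200 bases, 11.6% of members and 6.1% of all windows held the STAT motif.

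To ask how these loci differ between cell states, eTregs were compared with cTregs over both genotypes. Accessibility was lower in eTregs at more of the regions than it was higher: of 138 tested, 23 were lower and 10 higher in edgeR's quasi-likelihood test with an adjusted p below 0.05 and a change of more than 0.5 in log2. Over all tested regions 10.5% were lower and 8.4% higher. With only the regions in a gene body or within 10 kb of a start, 10 were lower and 7 higher. Tested regions of this kind numbered 29 of Ikzf2, 19 of Nrp1, 13 of Il2ra and 2 to 5 of each other gene. By position, 1 was lower and 1 higher of 6 over a start, and 3 and 4 of 57 elsewhere in a gene body. Outside the gene bodies, 11 and 3 of 46 upstream regions and 8 and 2 of 29 downstream regions were lower and higher. Lower calls thus outnumbered higher ones outside the gene bodies. The median log2 fold change was -0.17 over the members and 0.01 over all regions. The calls were unevenly spread: every Gpr83 region was lower, Lrrc32 had 8 lower and 1 higher of 23, Nrp1 had 5 and 2 of 49, Il2ra had 2 and 0 of 13, Ikzf2 had 2 and 6 of 37, Il2rb had 0 and 1 of 4, and neither Ikzf4 nor Foxp3 had any.

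**Figure D1:**
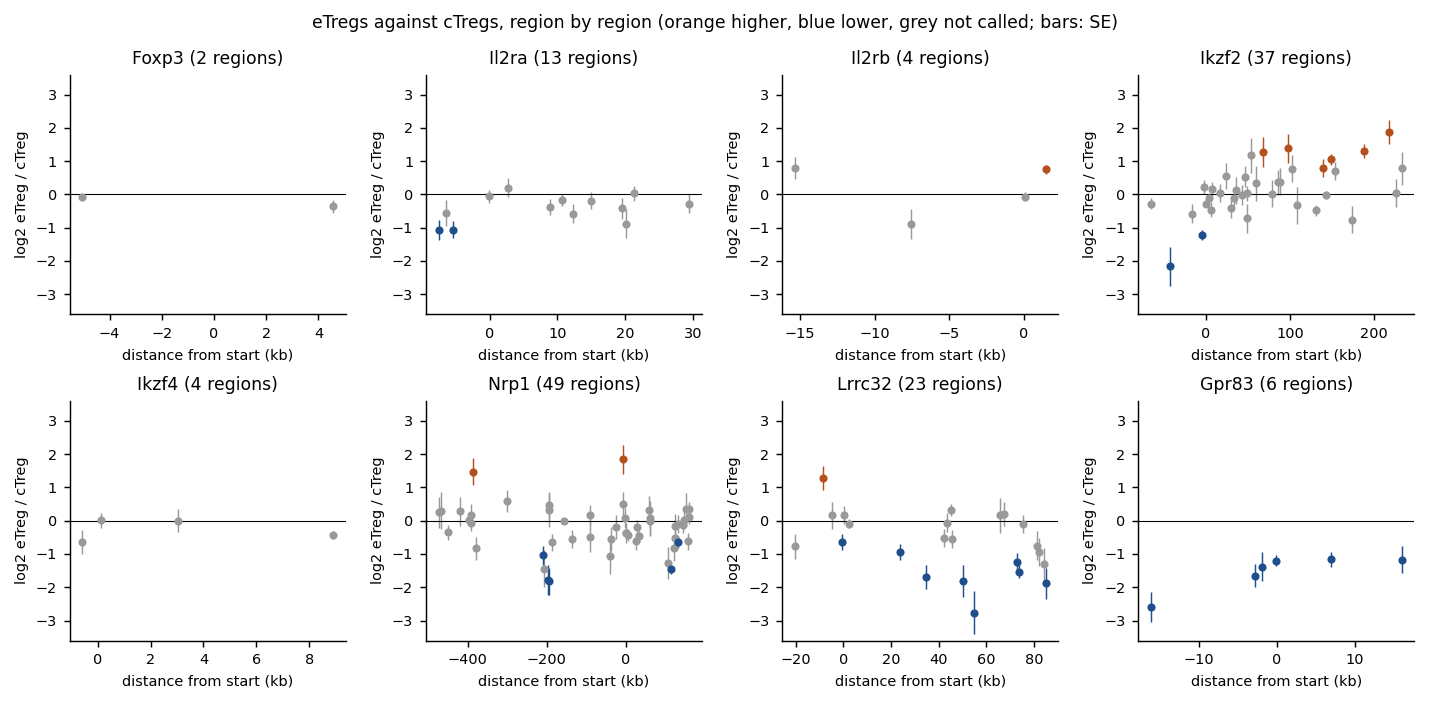
Log2 fold change of eTregs over cTregs (vertical axis, with SE) against distance of each tested region from the most upstream start of its gene in kb (horizontal axis, scaled per gene). Orange points are higher and blue points lower in eTregs by the adjusted call, grey points are not called; the 6 Gpr83 regions are all blue and the called Ikzf2 regions are blue upstream and orange far past the start.

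Within control cells alone, 9 regions were lower (3.29% of all tested regions were) and 4 higher (2.01%). The total of 13 fell to between 5 and 8 when any of control cTreg replicates 1 or 3 or control eTreg replicates 1, 2 or 3 was left out. Within Atg14KO cells, 14 were lower (5.4% over all) and 5 higher (4.41%), and the total of 19 became 11 without Atg14KO cTreg replicate 3 and 12 without Atg14KO eTreg replicate 1. With the replicate number as a block, calls numbered 40 over both genotypes, 23 in controls and 24 in Atg14KO cells, and those over all regions rose too, from 1235 higher and 2016 lower to 2868 and 3499 in controls. Both states were sorted from 3 control and 4 Atg14KO chimeras, but the labels do not say that a number marks a mouse.

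Foxp3 itself showed no call between states. The intronic region (chrX:7583870-7584397), in the stretch where CNS2 lies, gave 24.4, 18.9 and 19.6 CPM in control cTregs and 20.2, 12.5, 21.0 and 26.7 CPM in Atg14KO cTregs. In eTregs it gave 14.3, 19.9 and 17.5 CPM in controls and 14.4, 7.53, 18.8 and 18.2 CPM in Atg14KO cells. The cTreg and eTreg libraries overlapped within each genotype, and the fall by 0.35 on the log2 scale (SE 0.19) had an edgeR adjusted p of 0.19. The other Foxp3 region (chrX:7574044-7574993) lies within the annotated gene only through a minor transcript and covers the start of the divergent gene Ppp1r3f. Its group means were 50.5 to 58.9 CPM and its log2 change was -0.09 (SE 0.11, edgeR adjusted p = 0.60). With the total count over chromosome X regions as library size, the changes were -0.29 for the intronic region R65661 and -0.03 for the other, R65660, again without a call. A region over the Foxp3 starts was not analysed here, so these values do not bear on the promoter.

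In Il2ra, the alpha chain of the IL-2 receptor, 2 upstream regions were lower in eTregs, and no region at the start or in the introns was called. The start region (chr2:11642264-11643039) had means of 14.1 ± 5.36 (SD, n = 3), 20.6 ± 3.59 (n = 4), 15.2 ± 5.88 (n = 3) and 18.1 ± 3.64 CPM (n = 4) in control cTregs, Atg14KO cTregs, control eTregs and Atg14KO eTregs, and a state change of -0.05 (SE 0.20, edgeR adjusted p = 0.88). The most accessible region, in an intron 10744 bp past the start, was at 25.9 to 40.9 CPM in control cTregs and 25.4 to 37.3 CPM in control eTregs, with a change of -0.17 (SE 0.17). The region 5498 bp upstream, printed above, gave 5.38, 10.5 and 8.92 CPM in control cTregs and 9.24, 6.23, 9.46 and 12.2 CPM in Atg14KO cTregs. It gave 3.25, 3.15 and 2.88 CPM in control eTregs, below every cTreg library, and 5.99, 4.18, 6.35 and 6.16 CPM in Atg14KO eTregs, which overlapped the lowest cTreg values. The log2 change was -1.05 (SE 0.26, edgeR adjusted p = 0.0041). The region 7600 bp upstream changed by -1.06 (SE 0.31, edgeR adjusted p = 0.013); this call was lost without control cTreg replicate 1.

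Il2rb, the beta chain, is transcribed from 2 annotated starts, and its regions there differed. The region over the second start (chr15:78493396-78494202) was higher in eTregs: 27.4, 27.5 and 21.9 CPM in control cTregs and 19.3, 26.9, 17.1 and 27.0 CPM in Atg14KO cTregs, against 39.0, 46.5 and 39.8 CPM in control eTregs and 36.5, 38.9, 41.3 and 41.4 CPM in Atg14KO eTregs. All 7 eTreg libraries lay above all 7 cTreg libraries, with a log2 change of 0.75 (SE 0.13, edgeR adjusted p = 0.00015). The region over the first start (chr15:78494939-78495436) gave group means of 29.7 to 35.9 CPM and a change of -0.08 (SE 0.14). The difference between the 2 regions was not tested.

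Ikzf2, which encodes Helios, moved in both directions along its length. At the start (chr1:69686990-69687720) the means were 48.7 ± 7.52 (SD, n = 3) in control cTregs, 51.7 ± 6.46 (n = 4) in Atg14KO cTregs, 34.6 ± 4.56 (n = 3) in control eTregs and 49.0 ± 2.39 CPM (n = 4) in Atg14KO eTregs. The state change there was -0.28 (SE 0.11, edgeR adjusted p = 0.065). The region 5147 bp upstream (chr1:69691976-69692808), printed above, fell from 34.7, 36.1 and 25.9 CPM in control cTregs and 38.6, 32.7, 45.2 and 46.9 CPM in Atg14KO cTregs to 13.7, 17.6 and 11.5 CPM in control eTregs and 20.1, 15.1, 15.3 and 19.5 CPM in Atg14KO eTregs. The cell states did not overlap, and the change was -1.21 (SE 0.15, edgeR adjusted p = 2.2e-06). The most accessible region, an intronic one 142820 bp past the start, was at 35.7 to 80.5 CPM in cTregs and 48.8 to 76.4 CPM in eTregs and changed by -0.03 (SE 0.12).

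The 6 higher Ikzf2 regions all lay 68141 bp or more past the start. The clearest, chosen after its values were seen, was in the untranslated part of the last exon (chr1:69537628-69538342): 9.29, 14.8 and 8.03 CPM in control cTregs, 10.9, 12.5, 11.8 and 16.7 CPM in Atg14KO cTregs, 18.5, 20.5 and 20.6 CPM in control eTregs and 31.8, 28.9, 26.5 and 36.2 CPM in Atg14KO eTregs. Every eTreg library was above every cTreg library, by 1.05 on the log2 scale (SE 0.17, edgeR adjusted p = 7.3e-05). Beyond the gene, the regions 188116 bp and 217795 bp past the start changed by 1.30 (SE 0.22) and 1.87 (SE 0.37), the latter with eTreg values spread from 3.6 to 17.7 CPM. The calls at 138624 bp and 68141 bp past the start were lost in 9 and 11 of the 14 fits with 1 library left out.

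Ikzf4, which encodes the Foxp3 partner Eos, had 4 regions and no call over both genotypes. The largest, over a coding exon (chr10:128636632-128637527), had means of 52.3 ± 8.25 (SD, n = 3) and 58.4 ± 5.83 (n = 4) CPM in control and Atg14KO cTregs and 41.7 ± 8.14 (n = 3) and 40.8 ± 4.01 (n = 4) CPM in control and Atg14KO eTregs. Its change of -0.44 (SE 0.11, edgeR adjusted p = 0.0062) passed the test but not the fold threshold. Within Atg14KO cells alone the same region was called, at -0.52 (SE 0.15, edgeR adjusted p = 0.023), and it changed by -0.35 (SE 0.17, edgeR adjusted p = 0.25) in controls. The region over the start was at 9.66 to 12.1 CPM in the group means, with a change of 0.01 (SE 0.22).

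Among the surface receptors, Nrp1 held the most strongly supported change. The intronic region 114754 bp past the start (chr8:128473814-128474261) gave 44.5, 38.5 and 28.5 CPM in control cTregs and 49.5, 47.9, 54.7 and 45.6 CPM in Atg14KO cTregs. In eTregs it gave 12.4, 12.6 and 15.9 CPM in controls and 21.6, 15.1, 18.5 and 15.9 CPM in Atg14KO cells. No eTreg library reached any cTreg library, and the log2 change was -1.46 (SE 0.14, edgeR adjusted p = 7.3e-08), with -1.45 in control and -1.47 in Atg14KO cells. The region just before the start (chr8:128357889-128359072), the most accessible of the locus, changed by -0.37 (SE 0.13, edgeR adjusted p = 0.044), short of the fold threshold. A small region 6228 bp upstream, chosen after its values were seen, rose from 0 to 1.93 CPM in cTregs to 2.65 to 6.29 CPM in eTregs. Of the 53 Nrp1 regions, 38 belong to the gene only as the nearest start, as far as 473255 bp upstream among those tested, and whether they act on Nrp1 was not tested.

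Lrrc32 was lower in eTregs at 8 and higher at 1 of its 23 tested regions, of which 5 lie in the gene body or within 10 kb of its start. The region nearest its start (chr7:98489812-98490133) had means of 8.82 to 10.1 CPM and a change of 0.18 (SE 0.27), and the most accessible region, 2224 bp past the start in an intron, changed by -0.09 (SE 0.14). Of the 8 lower regions, 7 lay downstream, between Lrrc32 and its neighbour Emsy, from 23742 bp to 84802 bp past the start. Whether these 7 act on Lrrc32 was not tested. The one at 73482 bp (chr7:98562946-98563412), printed above, gave 18.6, 23.0 and 17.4 CPM in control cTregs and 32.8, 20.6, 23.1 and 28.3 CPM in Atg14KO cTregs. It gave 3.9, 7.35 and 7.93 CPM in control eTregs and 8.99, 12.6, 8.47 and 7.96 CPM in Atg14KO eTregs. The states were fully apart, with a log2 change of -1.53 (SE 0.19, edgeR adjusted p = 2.9e-06). Of the other 6 downstream, 5 changed by -0.94 to -1.88; at the sixth, 54990 bp past the start, 2 of the 3 control eTreg libraries had no count, so no fold is given. The eighth, 726 bp upstream, changed by -0.64 (SE 0.23) and lost its call in 9 of the 14 fits with 1 library left out and with DESeq2 size factors or loess offsets. The higher region, a weak one 8491 bp upstream, was at 0.98 to 6.43 CPM in cTregs and 3.18 to 8.22 CPM in eTregs, a change of 1.28 (SE 0.37, edgeR adjusted p = 0.013), and it kept its call with each library left out; it changed by 2.14 (SE 0.58) in control and 0.41 (SE 0.46) in Atg14KO cells.

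Gpr83 was lower in eTregs at all 6 regions, from 16128 bp upstream to 16072 bp past the start, by -1.17 to -2.59. At the start (chr9:14859936-14860382) the values were 29.3, 41.4 and 48.6 CPM in control cTregs and 30.6, 44.8, 42.1 and 32.8 CPM in Atg14KO cTregs. They were 11.8 to 19.8 CPM in control eTregs and 13.8, 16.7, 26.7 and 14.9 CPM in Atg14KO eTregs. The highest eTreg library was below the lowest cTreg library, and the change was -1.20 (SE 0.17, edgeR adjusted p = 1.4e-05). The most distal upstream region gave 5.26 to 16.8 CPM in cTregs and 0 to 5.02 CPM in eTregs. Calls at the regions 1814 bp upstream and 16072 bp past the start were lost in 4 and 9 of the 14 fits with 1 library left out, and the other 4 held in all of them.

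**Figure D2:**
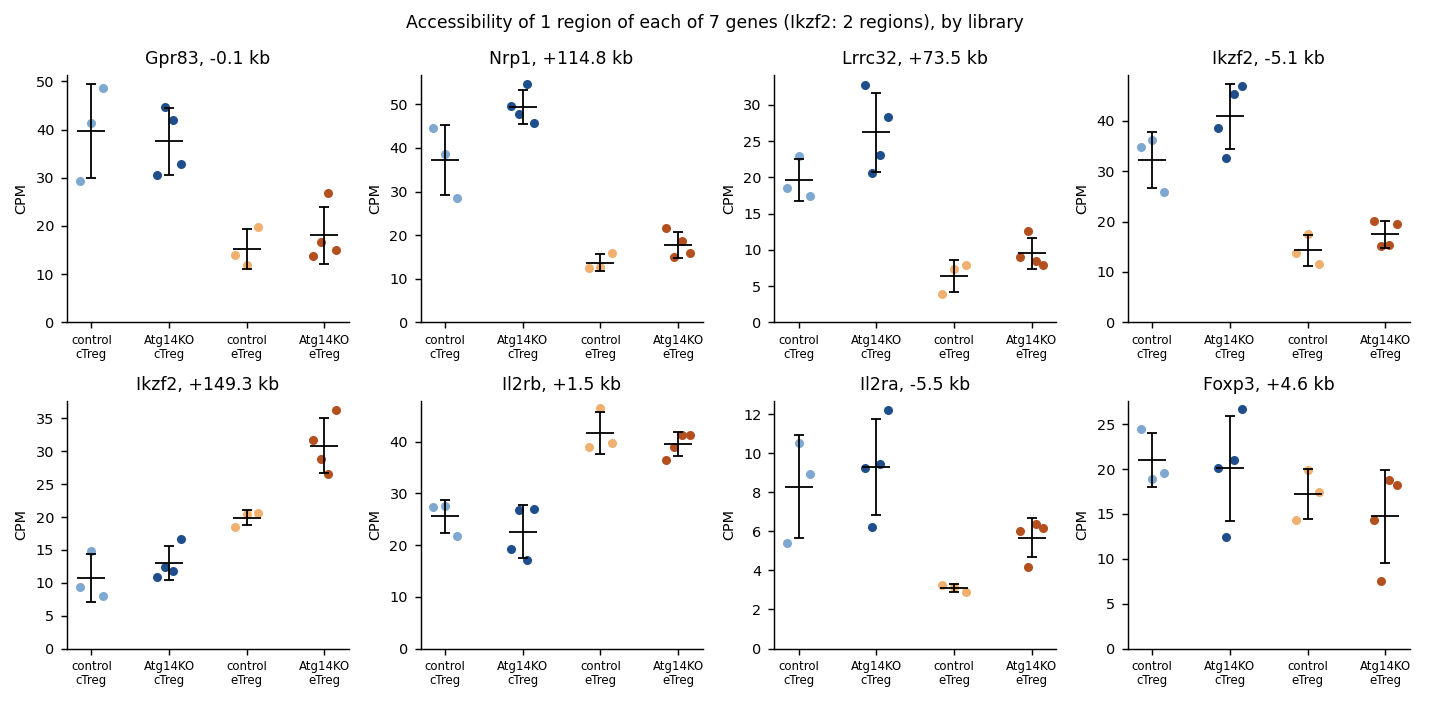
Accessibility in CPM (vertical axis, from 0) of each library at 8 regions, titled with the gene and the distance of the region from its start; columns are the 4 groups, points are libraries, and black bars are means with SD. The first 4 panels are lower in eTregs, the second Ikzf2 region and the Il2rb region are higher, and at the Foxp3 intron the cell states overlap within each genotype.

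Summing the counts of all regions of a gene gave 1 value per locus. Such a sum includes regions assigned only as the nearest start, and whether these act on the gene was not tested. For Lrrc32, 5 of the 23 tested regions lie in the gene body or within 10 kb of its start. Per kb of region, control cTregs were at 54.1 ± 5.05 CPM (SD, n = 3) for Foxp3, 40.7 ± 8.91 for Ikzf4, 40.2 ± 0.85 for Gpr83, 28.9 ± 0.75 for Il2ra, 25.8 ± 3.41 for Ikzf2, 25.5 ± 1.52 for Lrrc32, 25.4 ± 1.63 for Il2rb and 21.6 ± 2.23 for Nrp1. Ikzf4 and Gpr83 did not differ beyond their spread, nor did Ikzf2, Lrrc32 and Il2rb. The Foxp3 value is mostly the region shared with Ppp1r3f. In edgeR, the Gpr83 sum was lower in eTregs by the same call (log2 change -1.35, SE 0.14, adjusted p = 5.1e-07), where 4.12% of 15373 genes were lower and 9.6% higher. The sums of Lrrc32 (-0.46, SE 0.07), Ikzf4 (-0.34, SE 0.10), Il2ra (-0.30, SE 0.08), Nrp1 (-0.25, SE 0.07) and Il2rb (0.33, SE 0.10) passed the adjusted p but not the fold threshold. Ikzf4 no longer passed without control cTreg replicate 1 or control eTreg replicate 3, and Il2rb no longer passed with TMM factors, without Atg14KO cTreg replicate 3 or without control eTreg replicate 2. The sums of Ikzf2 (-0.02, SE 0.07) and Foxp3 (-0.15, SE 0.10) did not pass. The median over all genes was 0.089.

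**Figure D3:**
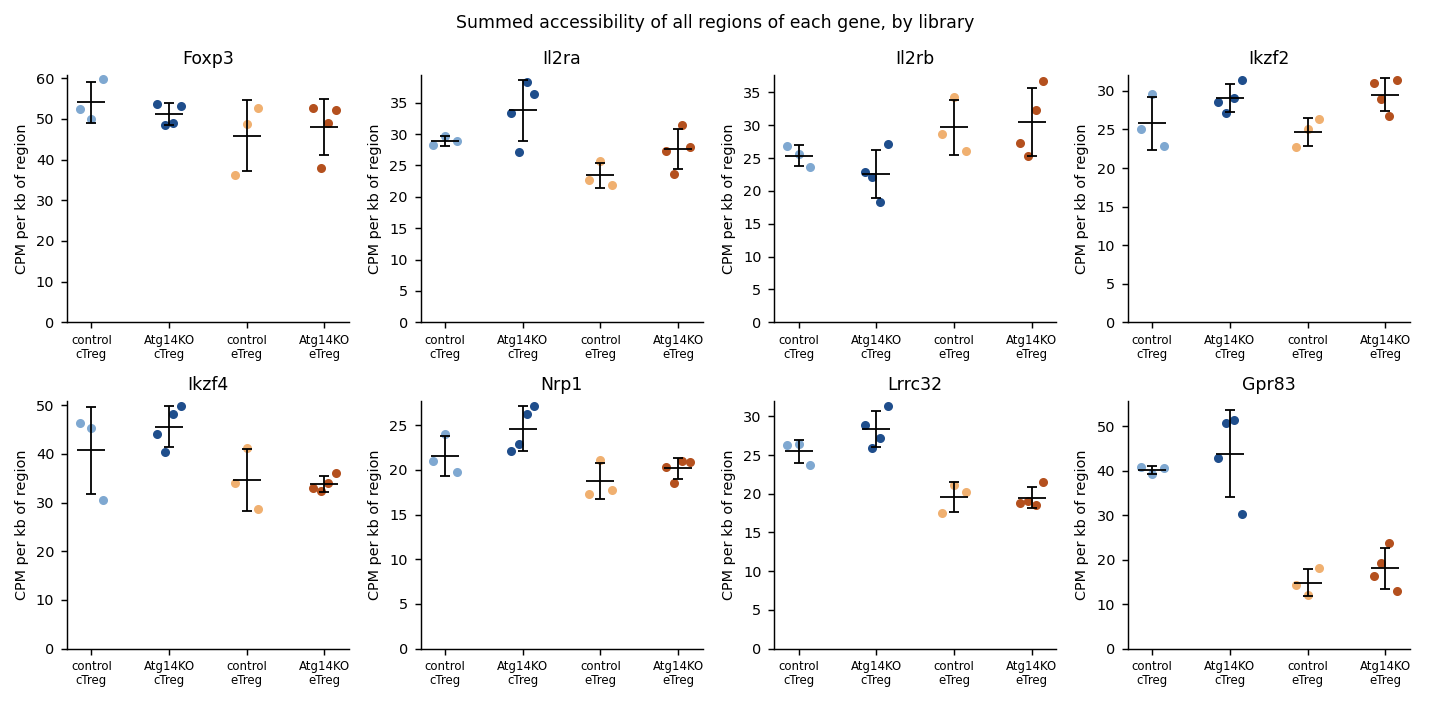
Summed accessibility of all regions of each gene, in CPM per kb of region (vertical axis, from 0), for each library in the 4 groups; points are libraries and black bars are means with SD. Gpr83 and Lrrc32 show no overlap between the cTreg and eTreg libraries, while the other 6 genes overlap.

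To ask what loss of Atg14 does at these loci, Atg14KO and control cells were compared within each state. No region of the 8 genes was called in eTregs or in cTregs by the adjusted edgeR test, where 0.0228% and 0.0163% of all regions were, and DESeq2's Wald test called none of the members. With an unadjusted p below 0.05 and a log2 change beyond 0.5, 7 regions were higher and 0 lower in Atg14KO eTregs (4.59% and 1.77% of all regions), and 7 were higher and 3 lower in Atg14KO cTregs (1.99% and 1.35%). The higher share in eTregs, 7 of 138, was near that of all regions. The smallest edgeR adjusted p among the members was 0.40 in eTregs and rounded to 1 in cTregs. The direction was positive for 87 of 138 members in eTregs and 91 of 138 in cTregs, against 34480 and 32809 of all 61366 regions; with loess offsets it was positive for 82 and 83 members.

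**Figure D4:**
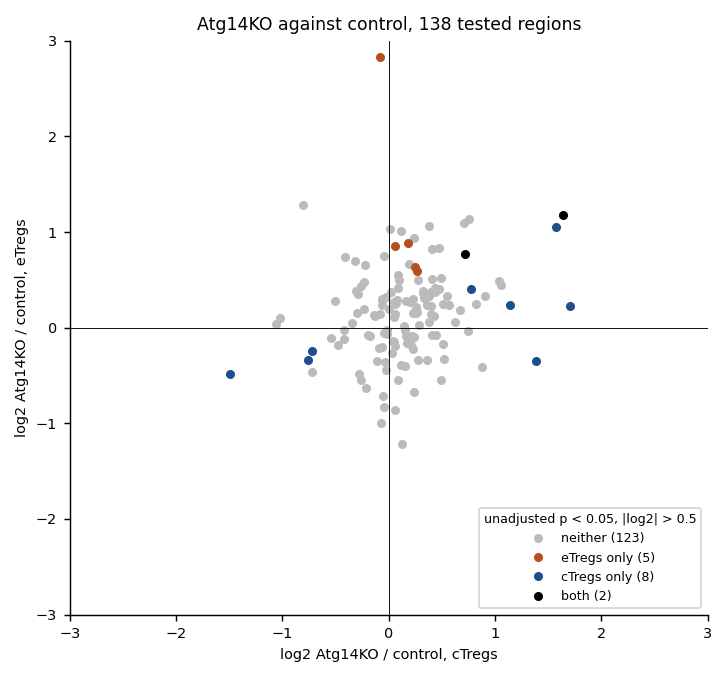
Log2 fold change of Atg14KO over control in eTregs (vertical axis) against the same in cTregs (horizontal axis) for the 138 tested regions. Colours mark an unadjusted p below 0.05 with a log2 change beyond 0.5: 5 regions in eTregs only, 8 in cTregs only and 2 in both, with 123 in neither.

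Neither Foxp3 region was called between genotypes. The intronic region changed by -0.21 (SE 0.27) in eTregs and -0.06 (SE 0.27) in cTregs, and these errors leave room for changes of either sign. The start of Ikzf2 showed the smallest p of any member in eTregs: the 4 Atg14KO values, 49.4, 51.9, 46.1 and 48.8 CPM, all exceeded the control values of 33.8, 30.4 and 39.5 CPM. The log2 change was 0.50 (SE 0.15, edgeR adjusted p = 0.40), just under the fold threshold, and 0.10 (SE 0.15) in cTregs. The last-exon region of Ikzf2 was likewise higher in every Atg14KO eTreg library, by 0.63 (SE 0.23, edgeR adjusted p = 0.49), and the summed Ikzf2 locus by 0.26 (SE 0.10, edgeR adjusted p = 0.29).

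At Il2ra, the region 5498 bp upstream was at 4.18 to 6.35 CPM in Atg14KO eTregs and 2.88 to 3.25 CPM in control eTregs, a change of 0.89 (SE 0.39, edgeR adjusted p = 0.57). At Lrrc32, the intronic region 2224 bp past the start went the other way, with 23.4, 26.4, 19.1 and 27.2 CPM in Atg14KO eTregs below the 34.8, 30.2 and 35.3 CPM of controls, a change of -0.48 (SE 0.20, edgeR adjusted p = 0.55). In cTregs this change was -0.28 (SE 0.20).

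Of the members, 2 passed the unadjusted rule in both states, higher in the Atg14KO cells each time, as did 188 (0.306%) of all tested regions. One was a weak region 156623 bp upstream of Nrp1 (chr8:128202423-128202899), at 0.98, 1.44 and 2.67 CPM in control cTregs and 4.2, 5.45, 4.73 and 5.78 CPM in Atg14KO cTregs. In eTregs it was at 1.95, 1.05 and 2.52 CPM in controls and 5.39, 3.35, 5.29 and 3.08 CPM in Atg14KO cells. The genotypes did not overlap in either state, with log2 changes of 1.64 (SE 0.54) in cTregs and 1.18 (SE 0.51) in eTregs. The other, 6038 bp past the Ikzf2 start and named after its values were seen, changed by 0.72 (SE 0.32) and 0.77 (SE 0.32).

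The state effect was then compared between genotypes. No region of the 8 genes, and 0% of all regions, was called for this interaction by the adjusted edgeR test, and no member by DESeq2. By the unadjusted rule, 2 members were higher and 1 lower (1.9% and 1.14% of all regions). All 3, named after their values were seen, were weak Lrrc32 regions with group means below 7 CPM, 54990 bp and 83961 bp past and 8491 bp before the start. At the first of these 2 of the 3 control eTreg libraries were at 0, so no fold is given there.

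Other genes of the same pathways were read from lists in the state comparison, where 10.5% of all regions were lower and 8.4% higher. The genes named singly below were picked after their values were seen. Of the 46 tested regions of the IL-2 signal genes (Il2, Il2rg, Jak1, Jak3, Stat5a, Stat5b), 14 were lower and 1 higher in eTregs, and 12 of the lower ones belonged to Jak1, the kinase bound to the beta chain. Of 24 regions of the other Ikaros family genes, 8 were lower and 0 higher, all at Ikzf1, whose sum changed by -0.62 (SE 0.07, edgeR adjusted p = 1.1e-06). Of 342 regions of 17 factors known to act at the Foxp3 locus, 91 were lower and 20 higher, among them Satb1 (26 lower and 1 higher of 43) and Bach2 (18 and 4 of 53). Tet2 (3 lower and 5 higher of 22) and Runx3 (0 and 2 of 18) had more higher than lower regions. So did Smad3 (0 and 1 of 20) and Dnmt1 (0 and 1 of 2). Of 33 regions of the partners of GARP and neuropilin (Tgfb1, Itgb8, Itgav, Furin, Sema4a), 5 were lower and 4 higher. In the genotype comparisons none of these lists held an adjusted call.

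The genes most like each member were those with the highest Pearson correlation of log2 CPM of summed counts over the 14 libraries, among 7391 genes. All correlations share cell state, depth and library, and are given as descriptions. Gpr83 was closest to Cblb (0.98), Myrfl (0.98) and St8sia1 (0.97). Il2ra was closest to Slfn5 (0.97), Stk17b (0.94) and Trak1 (0.93), and Lrrc32 to Slc13a1 (0.95), Tmem40 (0.93) and 5730522E02Rik (0.92). Nrp1 was closest to Dyrk2 (0.91), Rere (0.90) and Trak1 (0.90), and Il2rb to Fndc5 (0.92), Nup133 (0.90) and Mea1 (0.89). Ikzf4 was closest to Disp1, Dynlrb2 and Erg (0.88 to 0.89), Ikzf2 to Inpp4b (0.88), Glod4 and Tspan11 (0.86), and Foxp3 to Gm17509, Ulbp1 and Bivm (0.79 to 0.81). The Foxp3 sum is mostly the region shared with Ppp1r3f. With Spearman correlations, 2 of the 3 names stayed for Lrrc32, 1 of the 3 names stayed for Ikzf2, Ikzf4, Il2rb, Il2ra and Nrp1, 0 of the 3 names stayed for Gpr83 and Foxp3.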

How the data were processed

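The deposited table holds raw counts, whole numbers without normalization, of nucleosome-free ATAC-seq reads per region. Per the labels and the methods, the authors trimmed and aligned paired reads, marked duplicates with Picard (version 1.65 in the submitters' processing notes, another in the methods), shifted read ends for the transposase, called peaks with MACS2 (2.1.0.20150603), retained those seen in 50% or more of a group's replicates, merged them and counted with bedtools. The submitters' notes name mm10/GRCm38 and the methods name mm9: all 67207 regions on chromosomes lie inside GRCm38, and 19284 of 41421 protein-coding starts lie in regions (797 once starts are moved by 20000 bp), so GRCm38 was used. Merged peaks are kept by reproducibility, so peaks seen in under 50% of the replicates of every group are not in the table. Weak regions can still be in it.

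Counts were analysed with edgeR 4.0.16 in R 4.3.3 (DESeq2 1.42.0 as an alternative) and Python 3.11.15. Libraries were scaled by total count, edgeR's filter kept 61366 regions, and 1 robust quasi-likelihood model with the 4 groups was fitted to all 14 libraries. Log2 fold changes carry SEs derived from the F statistic, and p-values were Benjamini-Hochberg adjusted over all regions, or over all genes for sums. A call needs an adjusted p below 0.05 and a log2 change beyond 0.5; an unadjusted rule with the same fold was also used for genotype and the interaction. The study gives as many chimera mice as libraries per state (3 control and 4 Atg14KO), but the labels link no library to a mouse; p-values measure the spread between libraries. Precision is limited by depth and by 3 or 4 libraries a group, with a biological coefficient of variation of 25.6%. Of the counts, 82% are even. The reads were paired, and whether both reads of a pair were counted was not tested. Independent fragments may thus be fewer than the counts. The edgeR fit was tested on simulated data.

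Named regions were, for each gene, those nearest the start, with the highest mean, with the smallest state p and with the smallest genotype p, and every Foxp3 region. The genes, lists and rules were chosen with earlier results of these data known. A marker gene and a sequence window in these lists are not reported here. Alternatives were other scalings and filters, fold cutoffs, tests, samples, a block, a covariate and membership within 10 kb.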

Additional observations from a re-analysis of the deposited data

Results flagged for a closer look

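In 58 sets of 4 libraries (the named regions and the gene sums in each Atg14KO group), 3 had 1 library farther from the rest than Dixon's 95% critical value allows; chance gives about 1 in 20. Atg14KO eTreg replicate 2 gave 4.18 CPM at the Il2ra region 5498 bp upstream, where the other libraries gave 5.99 to 6.35 CPM. Atg14KO cTreg replicate 1 gave 18.9 CPM at the intronic Lrrc32 region 2224 bp past the start, where the others gave 29.2 to 31.2 CPM. Atg14KO eTreg replicate 4 gave 160.3 CPM for the summed Lrrc32 regions, where the others gave 138.4 to 141.4 CPM.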

How the results depend on the processing

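All 33 members called between cell states kept their direction under every alternative run, 32 kept the call under TMM factors, DESeq2 size factors and loess offsets, 33 under the DESeq2 test, and 27 with each library left out in turn. No alternative gave an adjusted call for genotype or the interaction. No other scaling moved the median of all regions by over 0.1. With at least 10 counts in every library, calls numbered 13 over both genotypes and 12 in Atg14KO cells, and the unadjusted counts were 4 in eTregs, 4 in cTregs and 1 for the interaction; fewer regions were tested. With a log2 cutoff of 1 the unadjusted counts were 2 in eTregs and 6 in cTregs. With only regions in a gene body or within 10 kb, calls numbered 17 (10 lower and 7 higher) over both genotypes, 8 in controls and 10 in Atg14KO cells, and 3, 5 and 1 unadjusted. With only the groups of the contrast, the unadjusted cTreg count was 5; the mean over genotypes and the interaction need all groups and have no such fit. With the promoter share as covariate, control calls rose to 24 and the unadjusted eTreg count to 12; the mean over genotypes split into 15 higher and 23 lower. Over all regions that fit called 7992 higher and 7011 lower over both genotypes (5155 and 6465 without it) and 3552 and 3364 in controls (1235 and 2016); the cause was not tested.

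With each library left out, calls numbered 28 to 36 over both genotypes, 5 to 15 in controls and 11 to 24 in Atg14KO cells, and the unadjusted counts were 6 to 12 in eTregs (12 without control eTreg replicate 3), 4 to 11 in cTregs (4 without Atg14KO cTreg replicate 3) and 1 to 5 for the interaction (1 without control cTreg replicate 1 or control eTreg replicate 2, 5 without control cTreg replicate 2). Same-numbered cTreg and eTreg libraries correlated at 0.0589 to 0.258 in their deviations from the group means; 6 of the 7 pairs passed 0.1, and every library correlated best with its own number. Whether a number marks a mouse is not given in the sources used here. A replicate block gave 40 calls over both genotypes, 23 in controls and 24 in Atg14KO cells, and 11 unadjusted in eTregs; over all regions it called 6695 higher and 7379 lower over both genotypes and 4684 and 4811 in Atg14KO cells (2707 and 3314 without it). Depth limits the weak regions most: many have under 10 CPM.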

Other observations

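Regions on chromosome Y had counts in all 14 libraries, at 53.0 to 99.4 CPM in sum. Regions on chromosome X, which carries Foxp3, held 1.8% to 2.24% of the counts.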
